A study of Homo sapiens with 6 samples.

Results

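Transcripts of 10 receptors of the tumour necrosis factor (TNF) receptor superfamily were measured in L428, an established human Hodgkin lymphoma cell line, after an siRNA against BATF3. The genes are TNFRSF8 (CD30), CD40, TNFRSF9 (4-1BB), TNFRSF1A (TNFR1), TNFRSF1B (TNFR2), TNFRSF11A (RANK), TNFRSF13B (TACI), TNFRSF13C (the BAFF receptor), LTBR (the lymphotoxin beta receptor) and FAS. They were chosen by symbol, as every probe set that the array annotation gives to 1 of these symbols alone. All 10 genes were measured, out of 18244, by 22 of 49393 probe sets. The cells were nucleofected with 3 µg of either BATF3 siRNA (3 arrays) or negative control siRNA (3 arrays) and cultured for 48 hours. Total RNA was read on Affymetrix PrimeView arrays. Only 1 BATF3 siRNA treatment and 1 cell line were used, and every group went through nucleofection. The labels do not say whether the BATF3 siRNA was 1 sequence or a pool. Nothing in them says that replicates were separate cultures. The p-values therefore reflect array-to-array spread that may be technical.

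TNF receptors are membrane proteins that cluster when they bind trimeric ligands of the TNF family. Most recruit TRAF adaptors to their cytoplasmic tails and switch on NF-kappaB and MAP kinases, while FAS and TNFR1 also carry a death domain that can start apoptosis. CD30 is the diagnostic surface marker of the tumour cells of classical Hodgkin lymphoma, and CD40 is also found on them, where both receptors feed into NF-kappaB. BATF3 is a basic leucine zipper factor that pairs with JUN proteins at AP-1 motifs.

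None of the 10 receptor genes passed the threshold after BATF3 siRNA (limma adjusted p under 0.05 over all genes), where 0.0164% of all genes did. The lowest adjusted p among them was 0.623. TNFRSF9, FAS and TNFRSF11A had higher values in all 3 BATF3 siRNA arrays than in any control array. Their group means differed by 0.37, 0.27 and 0.17 on the log2 scale. For TNFRSF9 the groups nearly touched, with the lowest BATF3 siRNA array at 9.11 and the highest control array at 9.10. The group means of TNFRSF8 and CD40 differed by −0.064 and −0.12. At an unadjusted p under 0.05 there were 2 of the 10 genes, TNFRSF9 and FAS, both higher, against 7.15% of all genes in either direction and 3.73% higher. The 3 BATF3 siRNA arrays did not overlap the 3 controls for 3 of the 10 genes, all 3 of them higher, against 12.1% of all genes in either direction and 6.36% higher. The median change was −0.085 over the 10 genes and −0.0027 over all genes, and 7 of the 10 changes were negative, against 51% of all genes.

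The BATF3 transcript itself read 10.87, 10.76 and 10.69 after BATF3 siRNA, against 11.89, 12.08 and 11.94 after control siRNA (log2). On the log2 scale BATF3 fell by 1.198 (SE 0.095; limma adjusted p = 0.00673), to 0.436 of the control level. The call was lost with the background of the arrays as a block (−1.10, limma adjusted p = 0.306). It was also lost when BATF3 siRNA replicate 3 was left out (−1.16, limma adjusted p = 0.0688) and when control siRNA replicate 2 was (−1.14, limma adjusted p = 0.0648), and it held in 13 of 16 alternative fits. Besides BATF3, limma called CD244 (−1.39, adjusted p = 0.00985) and MYO10 (0.91, adjusted p = 0.0468) over all genes, neither of them a TNF receptor. CD244 read above the highest background probe set in 5 of 6 arrays and MYO10 in 2 of 6. With the mean of probe sets their changes were −0.805 and 0.53. The CD244 call held in 11 of 16 alternative fits (limma adjusted p up to 0.180, the highest with the array background as a block). The MYO10 call held in 3 of 15 (limma adjusted p up to 0.769) and was lost whichever array was left out. Genes of the Hodgkin tumour cell (TNFRSF8, CCL17, FSCN1, TRAF1, IRF4, BATF3 and PAX5) read above the highest background probe set in all 6 arrays, 7 of 7 of them. Of 6 measured B cell genes that these cells are known to lose, CD79B alone did so. Of the markers of T and NK cells (0 of 6), myeloid cells (0 of 5) and fibroblasts and epithelium (0 of 5), none read above it in any array. The same held for 9174 of all 18244 genes, while 7806 read above it in all 6 arrays. The mean of the T and NK list was 4.44 to 4.46 after BATF3 siRNA and 4.31 to 4.39 after control siRNA (log2), and that of the myeloid list was 4.17 to 4.25 and 3.84 to 4.21. In the same order the Hodgkin list, which includes BATF3, was at 11.08 to 11.16 and 11.25 to 11.32. The B cell list was at 5.05 to 5.17 and 4.96 to 5.19, and the fibroblast and epithelial list at 4.61 to 4.76 and 4.62 to 4.75.

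The arrays differed in background, and 1 array stood apart. Background probes rich in G and C (20 to 25 such bases each) averaged 5.92 and 5.98 in BATF3 siRNA replicates 2 and 3. They averaged 6.49 in BATF3 siRNA replicate 1, and 6.46 to 6.49 in the controls. A fit with this background as a block rests on BATF3 siRNA replicate 1 against the 3 controls. Control siRNA replicate 2 stood apart from the other 5 arrays on the first principal component over all genes, which held 30.2% of the variance. On the second, with 27.3%, BATF3 siRNA replicates 1, 2 and 3 were at −8.2, 14.4 and 12.4. Control siRNA replicates 1, 2 and 3 were at −10.95, 2.6 and −10.2 on it. The brightest background probe set, whose probes hold 25 G or C bases, read 6.68 to 7.32 across the arrays, and it serves here as a conservative line. TNFRSF8, CD40, TNFRSF9 and FAS lay above that line in 6 of 6 arrays. TNFRSF1A, TNFRSF1B, TNFRSF11A, TNFRSF13B, TNFRSF13C and LTBR lay below it in 6 of 6 arrays, for all of their probe sets. Of all 18244 genes, 7806 lay above the line in every array and 9174 in none. Background probes with 3 to 15 G or C bases averaged far lower, at 2.06 to 2.20 across the arrays. The base content of their probes is not analysed here. Whether these 6 transcripts were above their own background was not settled, and differences are given for them without a fold.

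**Figure D1:**
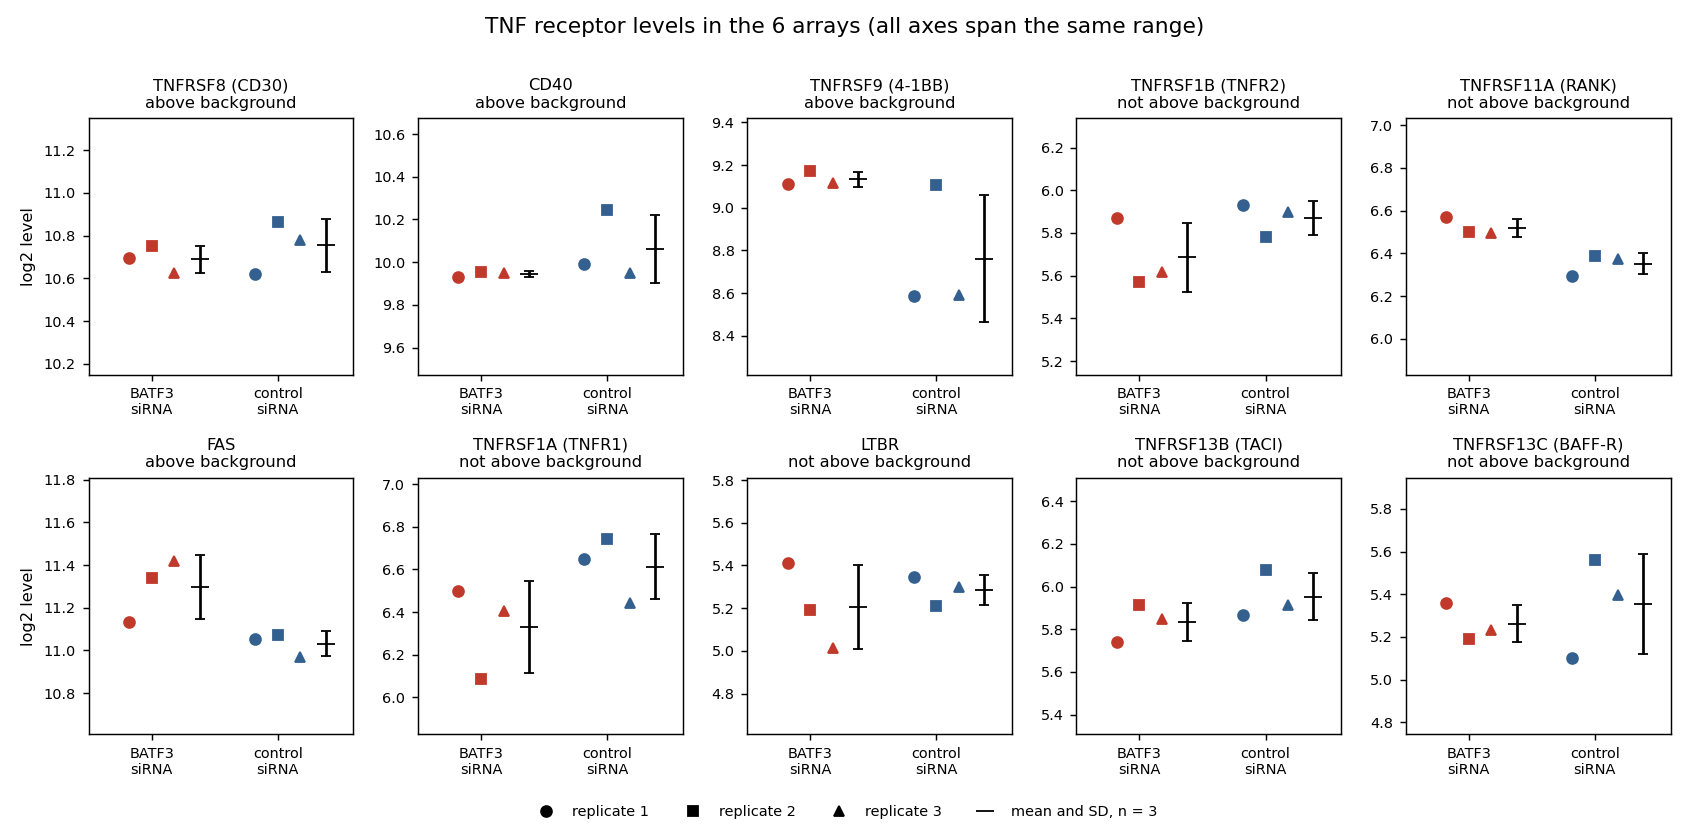
Log2 levels of the 10 receptors in the 6 arrays, with BATF3 siRNA in red on the left and control siRNA in blue on the right of each panel; marker shapes are replicates and the black bar is the mean with its SD (n = 3). TNFRSF9, TNFRSF11A and FAS have all 3 BATF3 siRNA arrays above all 3 controls, and the other 7 genes overlap.

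CD30 was read by 2 probe sets, both above the background line. The one with the higher mean level stood for the gene and read 10.70, 10.75 and 10.62 in BATF3 siRNA arrays, against 10.62, 10.86 and 10.78 in control arrays. The groups overlapped, and the change in TNFRSF8 was −0.064 (SE 0.096; 95% confidence interval −0.28 to 0.15; limma adjusted p = 0.929). On the ratio scale the interval ran from 0.824 to 1.11 of the control level. The TNFRSF8 change was −0.0097 without control siRNA replicate 2, −0.031 without BATF3 siRNA replicate 3 and −0.13 without control siRNA replicate 1. The second probe set read 8.83, 8.70 and 8.76 after BATF3 siRNA, against 8.88, 9.19 and 8.99 after control siRNA. Here the 3 BATF3 siRNA arrays lay below the 3 controls. The change was −0.25 (95% confidence interval −0.49 to −0.020), which did not pass when all probe sets were tested (limma unadjusted p = 0.0364, adjusted p = 0.672). Both CD30 probe sets therefore had a negative change, of different size.

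The 250 bases upstream of the TNFRSF8 start in RefSeq (GRCh38.p14, chr1:12063053-12063302, plus strand) are shown because BATF3 belongs to the AP-1 family. They were searched on both strands for the AP-1 motif TGANTCA, the cyclic AMP response motif TGACGTCA, the kappaB motif and an interferon response motif (GAAA, any 2 bases and GAAA again). None of the 4 is in this window, which says only that these letters are not in it.
TNFRSF8: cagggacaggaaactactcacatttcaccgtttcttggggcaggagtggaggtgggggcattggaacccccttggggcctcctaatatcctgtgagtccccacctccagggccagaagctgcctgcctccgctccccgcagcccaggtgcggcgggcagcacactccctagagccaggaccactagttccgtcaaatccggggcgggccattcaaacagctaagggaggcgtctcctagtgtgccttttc

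CD40, the receptor through which T cells activate B cells, was at 9.93, 9.96 and 9.95 in BATF3 siRNA arrays, against 9.99, 10.24 and 9.95 in control arrays. The 3 BATF3 siRNA arrays lay close together (9.95 ± 0.013, SD, n = 3), and control siRNA replicate 2 was the array that stood off (control 10.06 ± 0.16, SD, n = 3). The change was −0.12 (SE 0.10; 95% confidence interval −0.34 to 0.11; limma adjusted p = 0.863), a ratio of 0.923 with an interval of 0.789 to 1.08. Without control siRNA replicate 2 the CD40 change was −0.025. The second CD40 probe set overlapped between the groups too (8.54, 8.25 and 8.38 after BATF3 siRNA, against 8.25, 8.70 and 8.43 after control siRNA), with a change of −0.070. With the array background as a block that second probe set was at 0.077.

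TNFRSF9 encodes 4-1BB, a costimulatory receptor best known from activated T cells and induced by NF-kappaB. Its single probe set read 9.11, 9.17 and 9.12 after BATF3 siRNA, against 8.58, 9.10 and 8.59 after control siRNA. The BATF3 siRNA arrays again lay close together, and control siRNA replicate 2 read almost as high as they did. The means were 9.13 ± 0.035 and 8.76 ± 0.30 (log2, SD, n = 3 each). TNFRSF9 thus differed by 0.37 (SE 0.14; 95% confidence interval 0.060 to 0.69), a ratio of 1.29, and it did not pass over all genes (limma unadjusted p = 0.0245, adjusted p = 0.623). Of all genes, 3.93% had a smaller p. A two-sided exact permutation test over the arrays returned 0.1, its minimum for groups of 3. Without control siRNA replicate 2 the change in TNFRSF9 was 0.54 (limma adjusted p = 0.315), and with the array background as a block it was 0.35 (limma adjusted p = 0.987). Over all 16 alternative fits the change ran from 0.28 to 0.54 and the limma adjusted p from 0.0827 to 1.

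The 250 bases upstream of the TNFRSF9 start (RefSeq, GRCh38.p14, chr1:7940840-7941089, minus strand) hold an AP-1 motif, TGAGTCA, at 44 to 38 bases before the start. They also hold the kappaB motif on both strands, in 2 overlapping matches at 74 to 64 bases before the start. Capitals mark these matches.
TNFRSF9: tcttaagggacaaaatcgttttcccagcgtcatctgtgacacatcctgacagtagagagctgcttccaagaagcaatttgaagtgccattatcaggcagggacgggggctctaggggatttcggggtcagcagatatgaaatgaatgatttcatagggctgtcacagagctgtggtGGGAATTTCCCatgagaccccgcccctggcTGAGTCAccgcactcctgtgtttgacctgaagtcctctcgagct

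The AP-1 motif was in 6.60% of the 27305 promoters of this length, the kappaB motif in 5.05% and the interferon response motif in 3.07%. A promoter was matched for 8 of the 10 receptors, all but CD40 and TNFRSF13C. AP-1 was found in 2 of the 8 (TNFRSF9 and FAS), the kappaB motif in 1 (TNFRSF9), the interferon response motif in 1 (TNFRSF1B, at 10 to 1 bases before the start) and the cyclic AMP response motif in 0 (1.765% of all promoters). A match is a description of the sequence and not a measured binding site.

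FAS, the death receptor for FAS ligand, was read by 2 probe sets, both above the background line. The one that stood for the gene read 11.13, 11.34 and 11.42 after BATF3 siRNA, against 11.06, 11.07 and 10.97 after control siRNA. Every BATF3 siRNA array lay above every control, with replicate 1 only slightly so. The means were 11.30 ± 0.15 and 11.03 ± 0.057 (log2, SD, n = 3 each). FAS thus differed by 0.27 (SE 0.10; 95% confidence interval 0.039 to 0.49) and stood at a ratio of 1.202 (limma unadjusted p = 0.0260, adjusted p = 0.640). The second FAS probe set read 10.15, 10.19 and 10.28, against 9.90, 9.95 and 9.89, again without overlap. Its change was 0.29 (SE 0.088; 95% confidence interval 0.095 to 0.49; limma unadjusted p = 0.00842, adjusted p = 0.567 over all probe sets).

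BATF3 siRNA replicates 2 and 3, the arrays with the lower background, were the higher ones for the first FAS probe set. With the background as a block its change was 0.10 (limma adjusted p = 1). The second FAS probe set kept a change of 0.24 in that fit (limma adjusted p = 0.921). Over the 16 alternative fits the change of FAS as a gene ran from 0.10 to 0.35 and the limma adjusted p from 0.105 to 1. The exact permutation p, two-sided, was again at its minimum of 0.1.

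The FAS window (RefSeq, GRCh38.p14, chr10:88990548-88990797, plus strand) is set beside that of TNFRSF9 because these were the receptors with the smallest p. It holds a single match to the AP-1 letters TGANTCA, in capitals, at 242 to 236 bases before the start. The match, TGAATCA, has A at the open position N, where the TNFRSF9 match has G.
FAS: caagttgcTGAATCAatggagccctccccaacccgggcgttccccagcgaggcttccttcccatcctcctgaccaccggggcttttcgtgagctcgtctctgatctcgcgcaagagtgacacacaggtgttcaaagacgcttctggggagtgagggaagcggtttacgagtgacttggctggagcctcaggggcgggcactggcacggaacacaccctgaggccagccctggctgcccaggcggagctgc

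TNFR1, the other receptor of this set with a death domain, read 6.50, 6.09 and 6.41 after BATF3 siRNA, against 6.65, 6.74 and 6.44 after control siRNA. The groups overlapped, since BATF3 siRNA replicate 1 was above control siRNA replicate 3. The difference in TNFRSF1A was −0.28 (SE 0.13; 95% confidence interval −0.57 to 0.0077; limma unadjusted p = 0.0552, adjusted p = 0.709). All 4 TNFRSF1A probe sets had a negative difference, from −0.28 to −0.065, and none passed. With the array background as a block TNFRSF1A was at −0.11, and without BATF3 siRNA replicate 2, its lowest array, at −0.16. All of these levels were under the background line.

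TNFR2, which binds TNF and recruits TRAF proteins without a death domain, read 5.87, 5.57 and 5.62 after BATF3 siRNA, against 5.93, 5.78 and 5.90 after control siRNA. BATF3 siRNA replicate 1 lay among the controls. The difference in TNFRSF1B was −0.18 (SE 0.10; limma adjusted p = 0.799), and with the array background as a block it was 0.0007. Without BATF3 siRNA replicate 1 the difference was −0.27. Another TNFRSF1B probe set read 3.99, 4.35 and 4.19, against 4.51, 4.83 and 4.37, with no overlap between the groups. Its difference of −0.39 (95% confidence interval −0.70 to −0.078) had the smallest p of the TNFRSF1B probe sets and did not pass (limma unadjusted p = 0.0197, adjusted p = 0.634). The third was at −0.053. With the array background as a block the probe set at −0.39 moved to −0.58 and the third to −0.38.

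RANK, the receptor of the osteoclast cytokine RANK ligand, read 6.57, 6.50 and 6.49 after BATF3 siRNA, against 6.29, 6.39 and 6.37 after control siRNA. The groups did not overlap, on 1 probe set under the background line. The difference in TNFRSF11A was 0.17 (SE 0.084; 95% confidence interval −0.020 to 0.36; limma unadjusted p = 0.0737, adjusted p = 0.736). It lay between 0.14 and 0.22 over the 15 alternative fits that could include it.

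TACI and the BAFF receptor bind the B cell survival factors BAFF and, for TACI, APRIL. TNFRSF13B read 5.74, 5.92 and 5.85 after BATF3 siRNA, against 5.87, 6.08 and 5.92 after control siRNA, overlapping groups with a difference of −0.12 (limma adjusted p = 0.853). The TNFRSF13B difference was −0.21 with the array background as a block, −0.057 without control siRNA replicate 2 and −0.071 without BATF3 siRNA replicate 1. Of its 4 probe sets 3 had a negative difference, from −0.21 to −0.12, and 1 was at 0.017. The groups did not overlap for 2 of them, both lower after BATF3 siRNA. TNFRSF13C read 5.36, 5.19 and 5.23, against 5.10, 5.56 and 5.39. These overlapped, with a difference of −0.092 (SE 0.12; limma adjusted p = 0.922), and without control siRNA replicate 2, its highest array, the difference was 0.013. Leaving out control siRNA replicate 1 gave −0.22, BATF3 siRNA replicate 1 gave −0.14 and BATF3 siRNA replicate 2 gave −0.057.

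LTBR, which drives the alternative NF-kappaB pathway and is typically made by stromal and myeloid cells more than by lymphocytes, read 5.41, 5.19 and 5.01 after BATF3 siRNA, against 5.35, 5.21 and 5.30 after control siRNA. The highest and the lowest array were both BATF3 siRNA arrays. The difference was −0.079 (SE 0.11; limma adjusted p = 0.927). It turned to 0.13 with the array background as a block and to 0.016 without BATF3 siRNA replicate 3, while it was −0.18 without BATF3 siRNA replicate 1 and −0.049 without control siRNA replicate 1. A second LTBR probe set, also under the background line, was at −0.17, and at −0.14 with the array background as a block. Over its 13 alternative fits it ran from −0.26 to −0.061. In bulk RNA of this kind a smaller share of cells making a transcript and less of it per cell cannot be told apart.

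Across all 22 probe sets of the 10 receptors 0 passed (limma adjusted p under 0.05 over all probe sets), against 0.0101% of all probe sets. At an unadjusted p under 0.05 there were 5 of 22, 3 higher and 2 lower, against 7.16% of all probe sets. The groups did not overlap for 8 of 22, 4 in each direction, against 12.2% of all probe sets (6.38% higher and 5.86% lower). Probe sets of 1 gene share its RNA and are not independent. In 9 of the 10 genes every probe set had the same sign, 3 of those genes having 1 probe set, and the exception was TNFRSF13B.

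**Figure D2:**
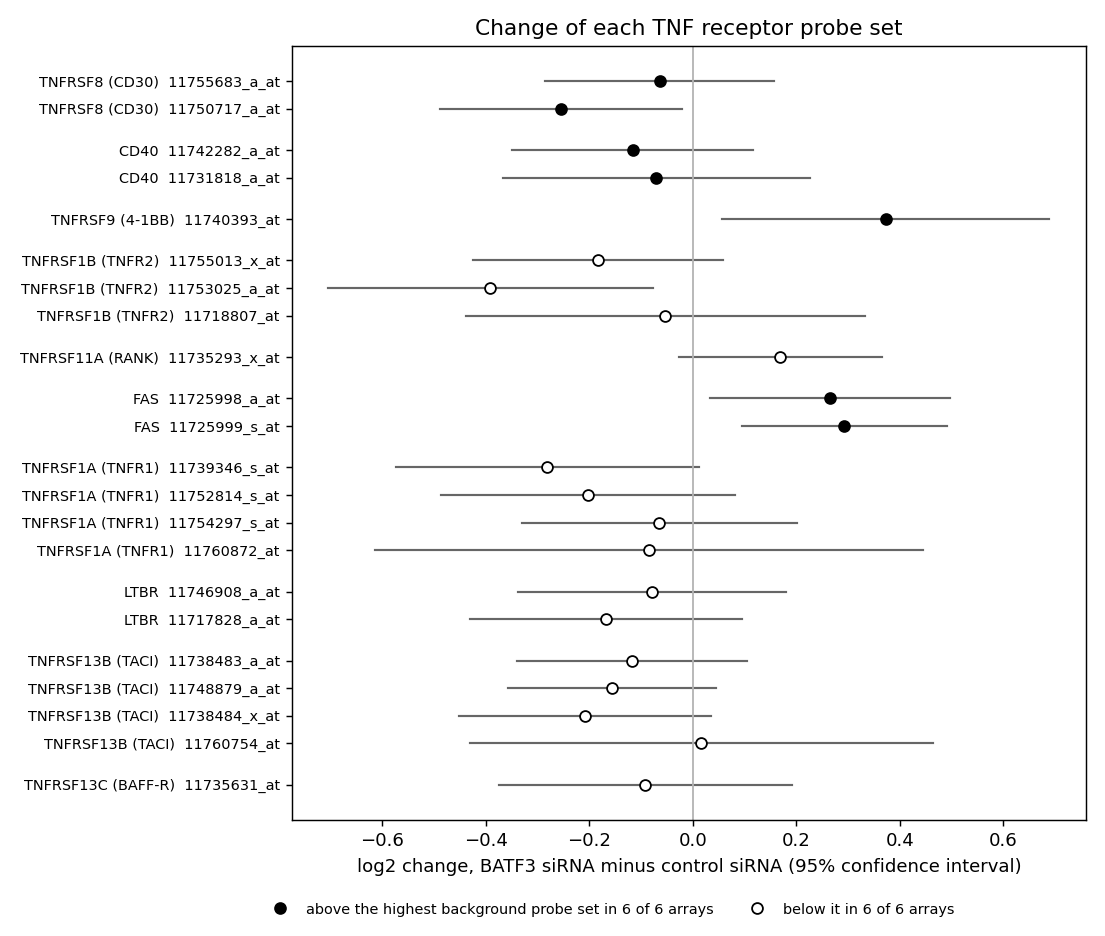
Log2 change (BATF3 siRNA minus control siRNA, x axis) of each of the 22 receptor probe sets with its 95% confidence interval from limma; filled points lie above the highest background probe set in 6 of 6 arrays and open points below it. The intervals of both FAS probe sets and of TNFRSF9 lie above 0, and those of 1 TNFRSF8 and 1 TNFRSF1B probe set lie below 0.

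**Figure D3:**
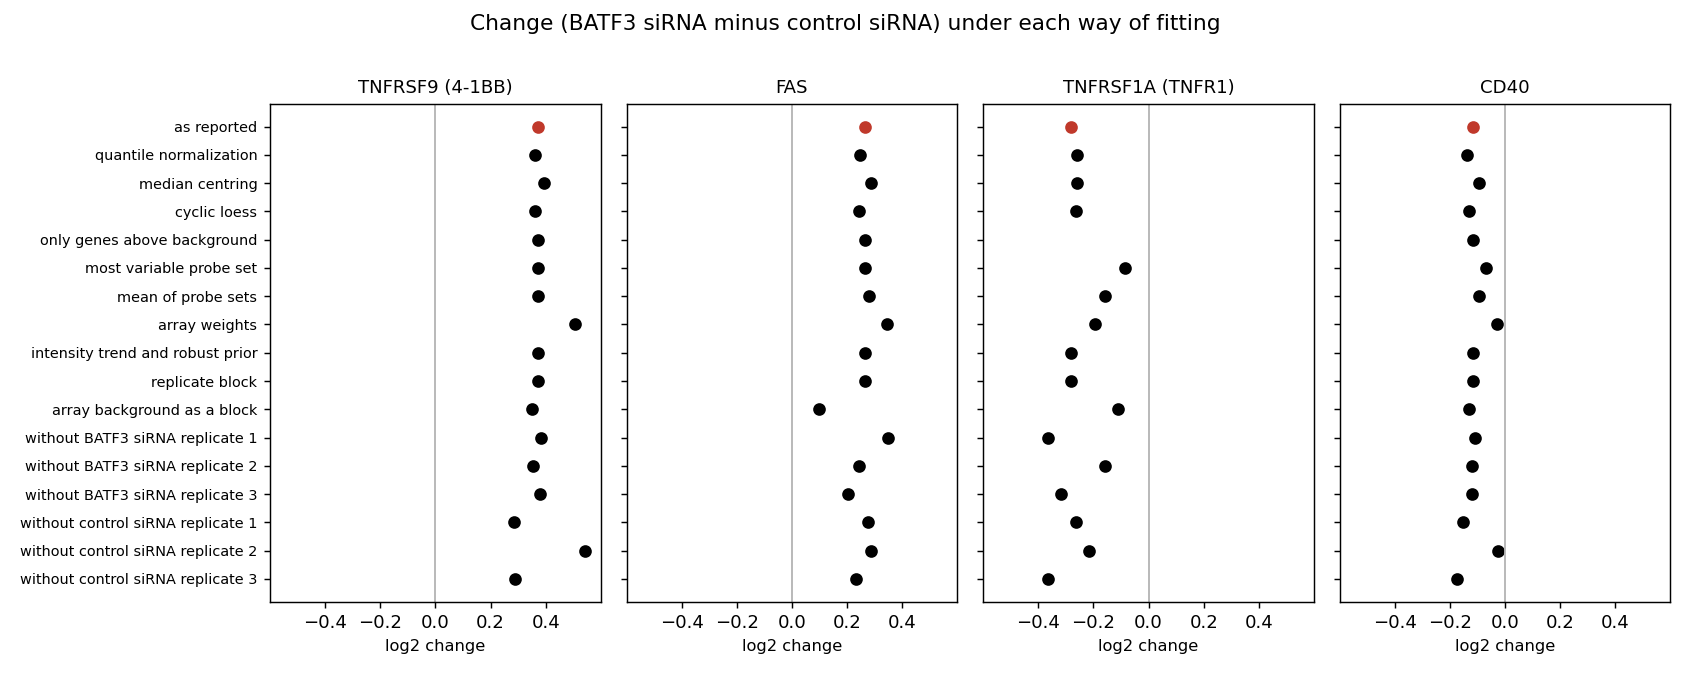
Log2 change (x axis, BATF3 siRNA minus control siRNA) of TNFRSF9, FAS, TNFRSF1A and CD40 under each way of fitting, with the reported fit in red. The TNFRSF9 points lie between 0.28 and 0.54 and the FAS points between 0.10 and 0.35, with the lowest FAS point from the fit with the array background as a block; TNFRSF1A has no point for genes above background.

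Ligands of the TNF family were set beside the receptors as a list of 18, of which 16 were measured. CD40LG and TNFSF13 are not analysed here. The list is not limited to ligands of the 10 receptors, and CD70 and TNFSF18 are among those that bind other receptors. None passed (limma adjusted p under 0.05), 8 of 16 had a positive change, and the median was −0.0076. At an unadjusted p under 0.05 there were 2 of 16, both higher, against 7.15% of all genes in either direction and 3.73% higher. TNF, the ligand of TNFR1 and TNFR2, read 9.55, 9.63 and 9.48 after BATF3 siRNA, against 9.003, 9.31 and 9.11 after control siRNA. The groups did not overlap, and the change was 0.41 (SE 0.10; limma unadjusted p = 0.00303, adjusted p = 0.446). With the array background as a block it was also 0.41. TNFSF9, the ligand of 4-1BB, read 8.31, 8.37 and 8.45, against 8.13, 7.95 and 8.11, a change of 0.31 (SE 0.092; limma unadjusted p = 0.00743, adjusted p = 0.518), or 0.25 with the block. Both 4-1BB and its ligand had higher values in every BATF3 siRNA array than in any control, as did 6.36% of all genes, and neither passed. For 4-1BB the margin was small (lowest BATF3 siRNA array 9.11, highest control array 9.10), and TNFSF9 was named for its small p.

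CD70, the ligand of CD27, had a change of 0.15 (limma adjusted p = 0.813) and, like TNF and TNFSF9, groups that did not overlap. The groups lay apart for these 3 of 16 ligands, all higher, against 12.1% of all genes in either direction and 6.36% higher. TNFSF18, the ligand of GITR, was at −0.18 (limma adjusted p = 0.812) and under the background line. The ligand of CD30, TNFSF8 (0.089), and that of FAS, FASLG (−0.10), were named after their values were seen. Both read under the background line in every array.

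The other 18 measured receptors of the family, of 19 listed, had 0 passing genes (limma, against 0.0164% of all genes) and 0 at an unadjusted p under 0.05, against 7.15% of all genes. Of these 11 had a positive change, the median was 0.022, and 4 lay above the background line in all arrays. Groups without overlap were found for 2 of 18, RELT and TNFRSF18, both lower, against 12.1% of all genes in either direction. The smallest p values belonged to TNFRSF17 (the plasma cell receptor BCMA, at −0.34), TNFRSF19 (−0.24), RELT (−0.17) and TNFRSF18 (GITR, −0.15), with limma adjusted p from 0.731 to 0.812. RELT read above the line in 1 array and the other three in none.

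Of 18 adaptors and regulators through which these receptors signal, 15 were measured and 13 lay above the background line in all arrays. None passed, 11 of 15 changes were positive, and the median was 0.073. At an unadjusted p under 0.05 there were 4 of 15, all higher, against 7.15% of all genes in either direction and 3.73% higher. Groups without overlap were found for 4 of 15, all higher, against 12.1% of all genes in either direction and 6.36% higher. TRADD, the death domain adaptor of TNFR1, read 9.07, 8.97 and 9.03 after BATF3 siRNA, against 8.79, 8.82 and 8.79 after control siRNA, a change of 0.22 (SE 0.082; limma adjusted p = 0.622). TRADD was at −0.29 for its more variable probe set, which read under the background line. TRAF1, an NF-kappaB target that binds CD30 and TNFR2, read 11.39, 11.36 and 11.36, against 11.18, 11.18 and 11.12. Its groups did not overlap, and the change of 0.21 (SE 0.082; limma adjusted p = 0.648) was 0.23 with the array background as a block.

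CYLD, a deubiquitinase that restrains NF-kappaB, was at 0.26 (SE 0.097; limma adjusted p = 0.636), without overlap. CHUK, which encodes the kinase IKK alpha of the alternative pathway, was at 0.34 (SE 0.14; limma adjusted p = 0.676). Its 2 highest arrays were BATF3 siRNA replicates 2 and 3, those with the lower background, and with the background as a block its change was 0.031.

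**Figure D4:**
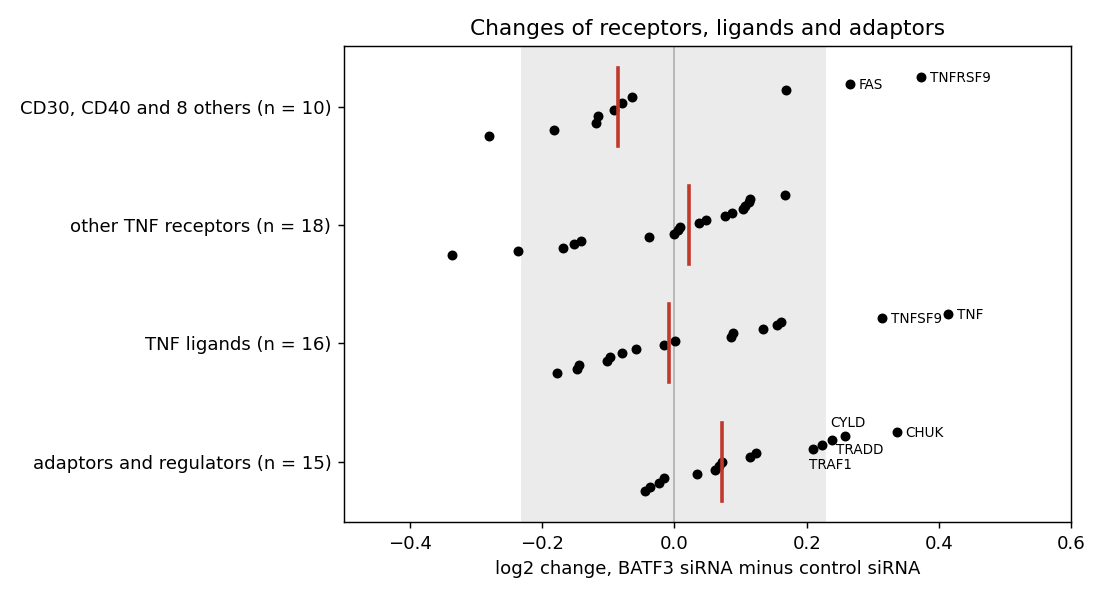
Log2 change (x axis, BATF3 siRNA minus control siRNA) of every measured gene in the 10 receptors, the other receptors, the ligands and the adaptors, with the median of each list as a red line and the range from the 5th to the 95th percentile of all genes in grey (−0.23 to 0.23). Labelled genes have an unadjusted p under 0.05, and none passed after adjustment.

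**Figure D5:**
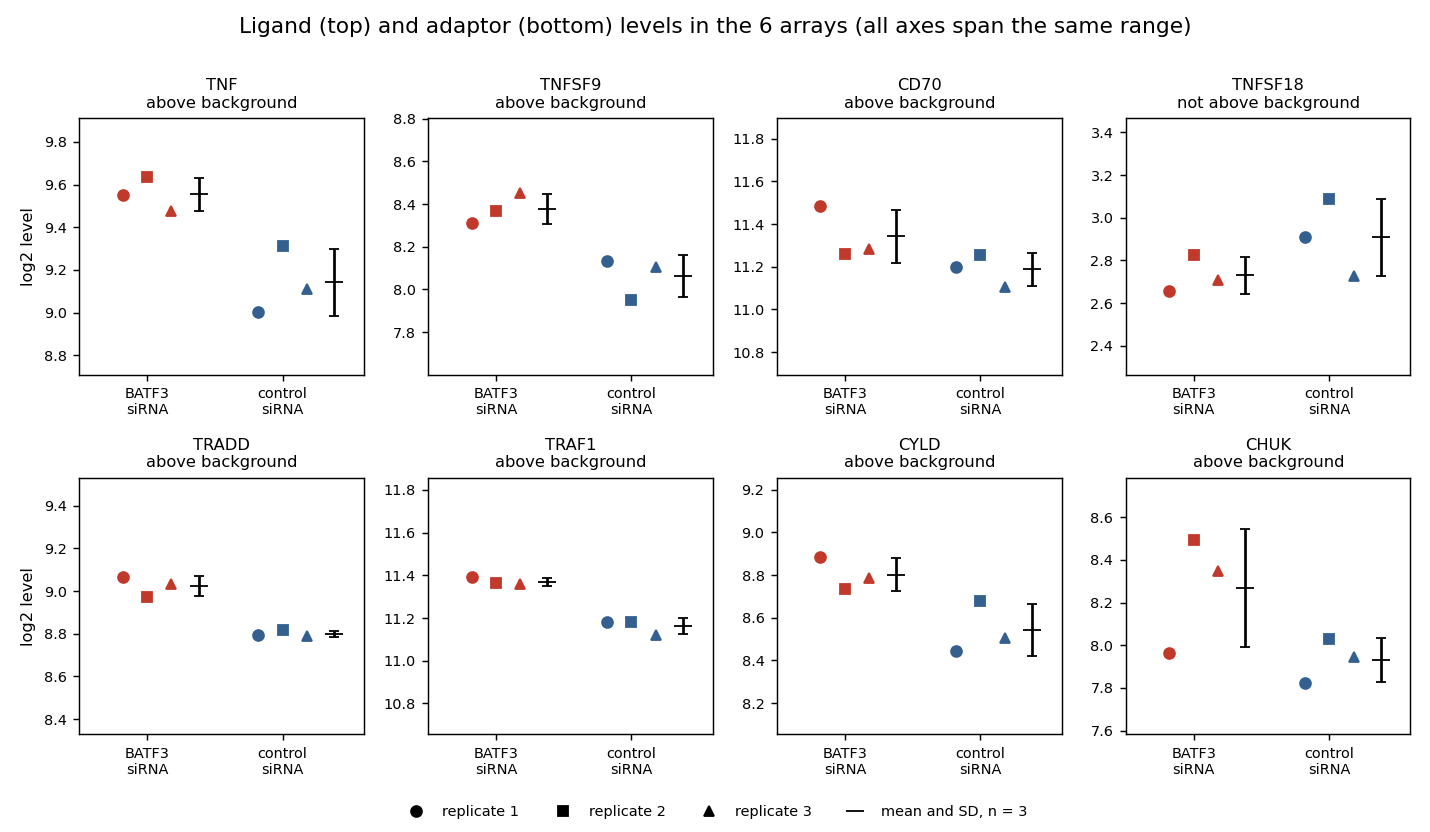
Log2 levels of TNF, TNFSF9, CD70 and TNFSF18 (top) and of TRADD, TRAF1, CYLD and CHUK (bottom) in the 6 arrays, BATF3 siRNA in red on the left and control siRNA in blue on the right; black bars are means with SD (n = 3). The groups overlap for TNFSF18 and CHUK and lie apart for the other 6 genes. The genes shown were picked for the smallest p in each list, and over all genes the groups lie apart for 12.1%.

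The genes whose levels followed CD30 and CD40 most closely over the 6 arrays were looked up among 8430 genes above the mean of that background line. For TNFRSF8 they were PSMC2 (Pearson r 0.992, Spearman rho 0.943), POMT1 (r 0.987, rho 1) and PWP2 (r 0.983, rho 0.943). Without control siRNA replicate 2 these 3 stood at r 0.967 to 0.994. For CD40 they were TMA16 (r 0.988, rho 0.943), SAE1 (r 0.985, rho 0.486) and KRABD3 (r 0.985, rho 0.771). Without control siRNA replicate 2 the CD40 values were 0.682, 0.661 and 0.266, so that likeness rests on 1 array. These are the highest of 8430 correlations over 6 arrays that share 1 cell line and describe the arrays only.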

How the data were processed

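The authors deposited log2 values, 1 per probe set and array. Base 2 is an inference from their range. The affy package is named in the submitters' processing notes, while the steps run in it (background, normalization, summarization) are not given here. The 6 medians spanned 6.24 to 6.33, and the values were used as deposited.

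Of 49393 probe sets that are not controls, 45278 had 1 gene, 1333 several and 2782 none in the platform annotation. Looking symbols up by Entrez identifier in RefSeq changed 0 of them. The probe set with the highest mean stood for a gene. BATF3 siRNA minus control siRNA was fitted two-sided and without covariates in limma 3.58.1 (R 4.3.3, lmFit with eBayes) over all 18244 genes, and again over all probe sets. A call is a Benjamini-Hochberg adjusted p under 0.05. Intervals are 95%, on 9.30 degrees of freedom. The number of arrays limits the precision, with a median SE of 0.107. The fit was tested on simulated data.

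The receptors, lists, alternatives and tests were chosen with earlier results of these data known. The text names the genes called over all genes, the 10 receptors, from each list the called genes or else the 4 with the smallest p, and the 3 genes most like TNFRSF8 and CD40. TNFSF8 and FASLG were added after their values were seen. Promoter windows were searched for the motifs named in the text. Letters were matched on both strands.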

Additional observations from a re-analysis of the deposited data

How the results depend on the processing

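Of the 10 receptors limma called 0 under any of the 17 alternatives, with 0 to 4 at an unadjusted p under 0.05. The 4 came with the mean of probe sets, where 1409 of 18244 genes had such a p. Array weights gave 3 receptors and 3312 genes, and leaving out BATF3 siRNA replicate 2 gave 0 and 973. Of the 22 probe sets limma called 0 under any of 15 alternatives, with 2 to 6 at an unadjusted p under 0.05. Over all probe sets that share is given for the reported fit only, at 7.16%. Among 154 values of single receptors under the alternatives 148 kept their direction. The 6 that turned were TNFRSF1B (0.0007), TNFRSF13C (0.0061) and LTBR (0.13) with the array background as a block, TNFRSF13B with its most variable probe set (0.017), TNFRSF13C without control siRNA replicate 2 (0.013) and LTBR without BATF3 siRNA replicate 3 (0.016). With the array background as a block the other probe sets of TNFRSF1B (−0.58 and −0.38) and of LTBR (−0.14) stayed negative. Leaving out 1 array gave TNFRSF13C −0.22 to 0.013 and LTBR −0.18 to 0.016. The cause was not tested. The number of genes called by limma, 3 as reported, was 2 under quantile, median or cyclic loess scaling, 6 at an adjusted p under 0.1, 7 among genes above background, 5 with the most variable probe set, 25 with array weights, 12 with an intensity trend and robust prior, and 0 with the array background as a block (1011 at an unadjusted p under 0.05). Leaving out 1 array gave 0 to 2 (852 to 1929 at an unadjusted p under 0.05). BATF3 was at −1.10 with the array background as a block (limma adjusted p = 0.306) and between −1.24 and −1.14 when 1 array was left out. The same replicate number did not mark a pair throughout (correlations of deviations 0.029, 0.15 and −0.026). With the replicate number as a block 3 genes were called, 0 of them receptors, and BATF3 was at −1.20 (limma adjusted p = 0.0137). The number of arrays and the background of G and C rich probes limit what can be seen.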
